A study of Mus musculus with 11 samples.

Results

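Complement and coagulation factors are proteins that the liver secretes into blood plasma, and 34 genes that encode them were read here in RNA-seq libraries of mouse liver. The genes were chosen by name, and all 34 were present among the 43346 genes of the deposited count table. Every library came from an FVB/NJ mouse whose liver cancer (HCC) had been induced by expression of MET and β-catenin. By the labels, 6 libraries were from responders to anti-PD-1, an antibody that blocks an inhibitory receptor of T cells, and 4 were from non-responders. A single further library has a response label that says it was not treated, although its treatment label still names the antibody, and it is called the no-treatment library here. The labels give the tissue as liver and say neither how response was judged nor how much of each piece was tumour. They also do not say that each library is a separate mouse, so p-values rest on the spread among these libraries alone, part of which may be technical.

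Complement is a chain of plasma proteases that coats foreign or damaged surfaces. Its lectin, classical and alternative routes meet at C3, and the terminal proteins from C5 to C9 then assemble into a pore, the membrane attack complex. Coagulation is a parallel chain in which vitamin K dependent proteases and their cofactors generate thrombin, thrombin turns fibrinogen into fibrin, and plasmin later dissolves the clot. Hepatocytes make most of these proteins. Properdin (Cfp) comes largely from leukocytes and factor D (Cfd) from fat.

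Depth ran from 17876515 to 40565708 gene counts in the responder libraries and from 25542066 to 39941835 in the non-responder libraries, and it was 49884800 in the no-treatment library. The 34 genes took between 2.48% and 4.16% of the counts of each treated library. Levels are in CPM, gene counts over library size after TMM scaling, and differences are log2 fold changes, responder over non-responder, with their standard errors. Non-responder replicate 1 stood apart, because its reads lay towards the 3′ ends of genes. The log2 ratio of read density in later to earlier exons was 1.22 in that library, against -0.20 to 0.02 in the other 10, as medians over 791 genes. The 5 hepatocyte markers, led by albumin (Alb), summed to between 60900 and 75770 CPM in responders and between 90590 and 119500 CPM in non-responders. That sum is mostly Alb and Apoa1, which had log2 fold changes of -0.60 and -1.11, while Ttr (0.81) and Apoh (0.45) were above 0 and Hnf4a was at -0.08; of the 5, edgeR called Apoa1. The 8 Kupffer cell and macrophage markers summed to between 171 and 589 CPM in responders and between 82.4 and 404 CPM in non-responders, and 0 of them were called by edgeR or reached an unadjusted p under 0.05. Of the 6 erythroid markers, 3 were called lower in responders (list median -1.21), and their sum ran from 82.3 to 191 CPM in responders and from 145 to 294 CPM in non-responders. In each of 5 further lists 1 marker was called lower: Ppbp (platelets), Fabp4 (fat), Lyve1 (endothelium), Klrb1c (NK cells) and Trac (T cells). Their lists did not all go that way. Log2 fold changes were above 0 for 4 of 6 endothelium markers (list median 0.31) and 2 of 4 tested NK cell markers. They were above 0 for 0 of 3 tested platelet markers and 0 of 6 T cell markers. Of 5 fat markers only 1 was tested. In whole tissue, fewer cells of a type and less RNA per cell cannot be told apart, and the part of cell composition in the results below was not tested.

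The members differed widely in level. Per kilobase of listed exon length, the mean over the treated libraries was 1511 CPM for C3, 1307 for Fga, 1255 for Fgg, 924 for Fgb and 767 for Plg, so that the central complement protein, the 3 fibrinogen chains and plasminogen led. At the other end were Pros1 at 12.6 CPM per kilobase and Cfp at 10.6. Cfd had 5 reads in all treated libraries together, 3 in responder replicate 2 and 2 in non-responder replicate 4, and the fat marker Adipoq had 3 reads in all. Cfd was too low to be tested, which leaves 33 members with a test.

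Of these 33, the responders had higher levels of 2, Mbl1 and Klkb1, and lower levels of 0, at an adjusted p under 0.05 in the quasi-likelihood test of edgeR. That is 6.06% of the members, against 9.93% of the 17610 genes tested, of which 4.11% were higher and 5.82% lower. At an unadjusted edgeR p under 0.05 there were 9 of the 33 members and 4803 of the 17610 genes, which is nearly the same share. DESeq2 called 5 members higher (Mbl1, Klkb1, C8b, C8g and Masp2) and 1 lower (Kng1), where it called 17.4% of all genes. The median log2 fold change was 0.23 for the members, 23 of them above 0 and 10 below, and -0.02 for all genes tested. Responder and non-responder levels did not overlap for 6 members: Mbl1, Klkb1, C8b, C8g and C9 were above and Kng1 was below. This is 18.2% of the members, against 11.3% of all genes tested, 5.6% above and 5.66% below. Without non-responder replicate 1, the groups did not overlap for 11 members (33.3%), against 17.7% of genes, with Hc and F12 added above and Cfi, F5 and F11 added below. That fit called 2 members, Mbl1 and F5, against 9.6% of genes.

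**Figure D1:**
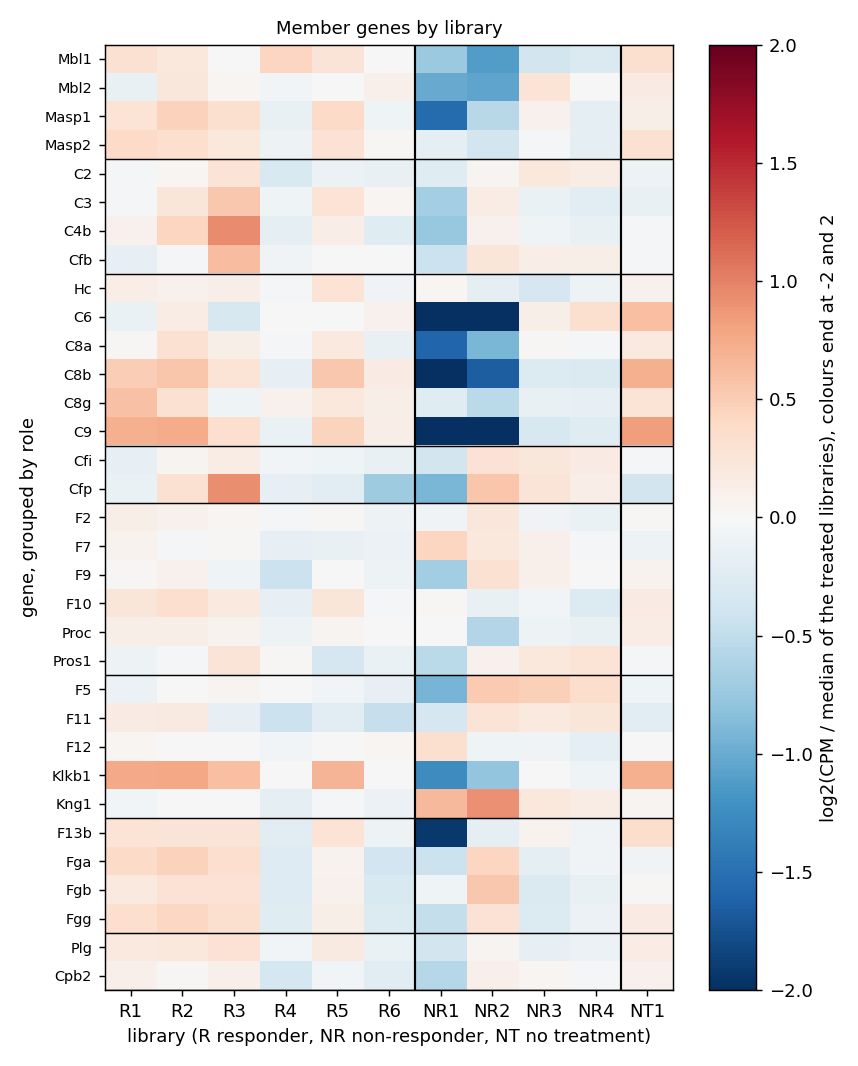
Level of each tested member in each of the 11 libraries, as the log2 ratio of its CPM to its median over the 10 treated libraries, with genes in rows grouped by role and libraries in columns. The darkest blue cells are C6, C8b and C9 in non-responder replicates 1 and 2 and the cells of F13b, C8a and Masp1 in non-responder replicate 1, and colours end at -2 and 2.

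The promoter windows of 4 members that the results turn on are shown for reference: C8b and C9, terminal complement genes whose groups do not overlap and that were far lower in 2 non-responder libraries, and the called genes Klkb1 and Mbl1. Each is the 250 bases before the RefSeq start of transcription, read in the direction of the gene, in the GRCm38.p6 assembly. Capitals mark a match on either strand to GTTAAT, a core of the site of the hepatocyte factor HNF1, or to TTGCNNAA, a core of the C/EBP site.
C8b, chr4:104766067-104766316, plus strand: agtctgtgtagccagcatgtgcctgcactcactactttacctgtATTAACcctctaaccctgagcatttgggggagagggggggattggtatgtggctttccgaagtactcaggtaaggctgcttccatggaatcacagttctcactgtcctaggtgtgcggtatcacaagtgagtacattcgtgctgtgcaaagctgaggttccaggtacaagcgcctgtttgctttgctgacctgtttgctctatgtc
C9, chr15:6445096-6445345, plus strand: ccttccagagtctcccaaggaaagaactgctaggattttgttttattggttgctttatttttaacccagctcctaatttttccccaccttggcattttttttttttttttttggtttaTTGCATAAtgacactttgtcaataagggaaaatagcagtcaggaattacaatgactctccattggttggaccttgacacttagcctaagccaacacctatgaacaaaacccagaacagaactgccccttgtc
Klkb1, chr8:45294836-45295085, minus strand: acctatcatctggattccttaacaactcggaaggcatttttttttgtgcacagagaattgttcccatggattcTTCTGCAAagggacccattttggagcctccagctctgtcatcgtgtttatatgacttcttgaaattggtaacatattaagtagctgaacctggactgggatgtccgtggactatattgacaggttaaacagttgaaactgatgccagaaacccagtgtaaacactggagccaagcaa
Mbl1, chr14:41151206-41151455, plus strand: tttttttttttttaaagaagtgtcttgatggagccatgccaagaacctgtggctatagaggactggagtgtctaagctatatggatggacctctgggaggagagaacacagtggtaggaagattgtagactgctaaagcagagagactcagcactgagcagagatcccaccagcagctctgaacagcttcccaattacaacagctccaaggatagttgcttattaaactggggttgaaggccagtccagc
C8b holds the HNF1 core, C9 and Klkb1 hold the C/EBP core, and the Mbl1 window holds neither run of letters. RefSeq promoter windows were matched for 26 of the 34 members, 27 windows in all. The HNF1 core was in 7 of the 27 (25.9%; C8a, C8b, Cfp, F13b, Fga, Fgb and Hc) and in 6.43% of the 32851 windows of all genes. The C/EBP core was in 7 of the 27 as well (C3, C9, F11, F9, Fga, Fgb and Klkb1) and in 9.56% of all windows. Fga and Fgb held both, at places that do not overlap. A match is a run of letters and not a binding site, and its relation to the levels was not tested.

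The lectin route held 1 of the called genes, that of a recognition protein. Mbl1 (chr14), a mannose-binding lectin that recognises sugars on microbial surfaces, had a lowest, median and highest level of 159.9, 189.7 and 217 CPM in the 6 responders. In the 4 non-responders it was at 96.3, 74.3, 126 and 133 CPM, in replicate order. All responder libraries were above all non-responder libraries, and the no-treatment library, at 201 CPM, lay among the responders. The log2 fold change was 0.80 ± 0.17 (SE, n = 6 and 4; edgeR adjusted p = 0.0217). Mbl2, the second mannose-binding lectin, was at 136 and 132 CPM in non-responder replicates 1 and 2 but at 332 and 274 CPM in replicates 3 and 4. Its groups overlapped, since responders ran from 247 to 322 CPM, and it did not pass the test (0.36 ± 0.25, edgeR adjusted p = 0.383). The lectin proteases Masp1 (0.65 ± 0.26, edgeR adjusted p = 0.129) and Masp2 (0.38 ± 0.13, edgeR adjusted p = 0.0841) did not pass either. Thus 1 of the 4 lectin genes was called, while all 4 had a log2 fold change above 0, with a median of 0.52. The Mbl1 call was lost without responder replicates 1, 2 or 5 (edgeR adjusted p from 0.0507 to 0.0537) and without non-responder replicate 2 (0.064), with log2 fold changes between 0.67 and 0.92 over all 10 fits that left out a library. Masp2 shares 54.9% of its exon bases with Tardbp on the opposite strand, and with the strand setting of the counting not given, reads of the pair may be mixed.

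No convertase gene passed the test. C3, the protein on which all routes converge, had a lowest, median and highest level of 7117, 8356 and 10920 CPM in responders and was at 4727, 8347, 6885 and 6526 CPM in non-responders. The ranges overlapped, and only non-responder replicates 1, 3 and 4 were below all responders (0.37 ± 0.20, edgeR adjusted p = 0.272). C4b, the second substrate of the classical and lectin convertase, ran from 637 to 1466 CPM in responders and from 448 to 807 CPM in non-responders (0.45 ± 0.25, edgeR adjusted p = 0.282). The catalytic subunits C2 (-0.09 ± 0.14) and Cfb (0.04 ± 0.20) had fold changes smaller than their standard errors. Cfb and C2 share 79.5% and 42.8% of their exon bases with the read-through gene Gm20547, and C4b shares 34.6% of its stretches of 50 bases with C4a, so reads of these genes may have been divided. The inhibitory protease Cfi (-0.14 ± 0.15) and the stabiliser Cfp (-0.01 ± 0.32) did not pass.

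Among the tested members, the terminal genes C6, C8b and C9 varied most between libraries, and most of that spread lay within the non-responders. C9, the protein that polymerises to form the pore, had a lowest, median and highest level of 591, 852 and 1087 CPM in responders. Non-responder replicates 1 to 4 were at 45.1, 137, 519 and 549 CPM. The non-responders fell into a very low pair, replicates 1 and 2, and a pair just under the responders, so that the groups did not overlap. The responder mean was 19.1 times the value of non-responder replicate 1 and 6.28 times that of replicate 2, but 1.66 and 1.56 times those of replicates 3 and 4. With this spread C9 did not pass (1.46 ± 0.57, edgeR adjusted p = 0.125).

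C8b, the β chain of C8, was also lowest in non-responder replicates 1 and 2. Its level was 250, 368 and 414 CPM at the lowest, median and highest responder, and 41.5, 89.9, 232 and 229 CPM in the 4 non-responders (1.26 ± 0.41, edgeR adjusted p = 0.075). C8g, the γ chain, was at 254.5, 302 and 405 CPM in responders and at 228, 185, 243 and 241 CPM in non-responders, without overlap and without values as far below the rest (0.49 ± 0.15, edgeR adjusted p = 0.0623). For C8b the call was reached without non-responder replicate 3 (edgeR adjusted p = 0.0498), with DESeq2 (0.0123) and with limma-voom (0.0396).

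C6, which joins the complex after C5, was at 282, 350.1 and 389 CPM in responders and at 25.9, 66.9, 379 and 439 CPM in non-responders. Here the groups overlapped, because non-responder replicate 4 was above every responder. The responder mean was 13.3 and 5.14 times the levels of replicates 1 and 2 (0.59 ± 0.62, edgeR adjusted p = 0.58). The α chain gene C8a was at 751, 873 and 1023 CPM in responders and at 278, 443, 842 and 818 CPM in non-responders (0.57 ± 0.28, edgeR adjusted p = 0.213). Hc, which encodes C5, varied least, from 340 to 431 CPM in responders and from 283 to 365 CPM in non-responders (0.23 ± 0.12, edgeR adjusted p = 0.256). FVB/NJ mice are known to carry a small deletion in Hc that leaves them without C5 in plasma, so its RNA count is no measure of the protein; the allele was not read here. In the role as a whole, 0 of 6 genes passed the edgeR test and all 6 had a log2 fold change above 0, with a median of 0.58.

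**Figure D2:**
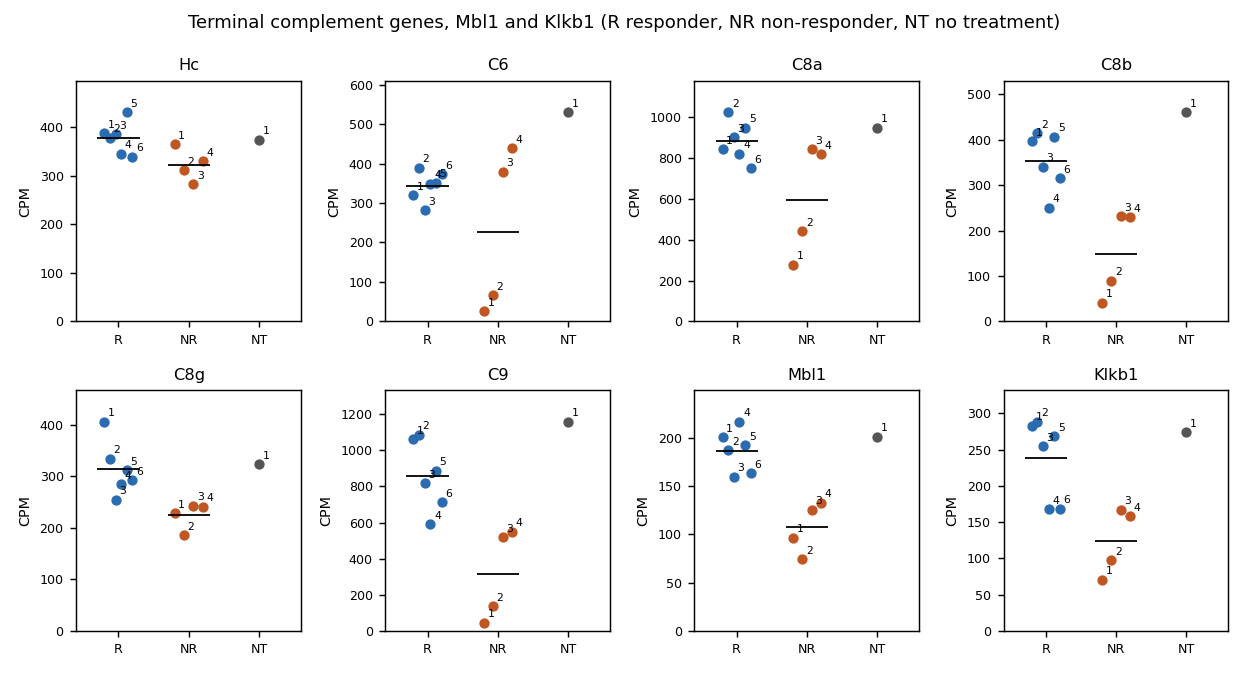
CPM of the 6 terminal complement genes, Mbl1 and Klkb1 in each library, with linear axes from 0, replicate numbers beside the points and a line at each group mean. Non-responder replicates 1 and 2 sit far below the other libraries for C6, C8b and C9, whereas replicates 3 and 4 sit at 519 and 549 CPM for C9.

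Non-responder replicates 1 and 2 shared these low values although only replicate 1 was 3′ biased. Relative to the median of the treated libraries, 8 members were more than 2-fold lower in replicate 1 (C6, C8a, C8b, C9, F13b, Klkb1, Masp1 and Mbl2) and 5 in replicate 2 (C6, C8b, C9, Mbl1 and Mbl2), and 0 in each of the other 8 treated libraries. Replicate 1 was the lowest treated library for 19 of the 33 members and replicate 2 for 5. The read density of the members themselves was 3′ biased in replicate 1, with a median log2 ratio of later to earlier exons of 1.52, and ran between -0.21 and 0.05 in the other 10 libraries. In replicate 2, where C6, C8b and C9 were also low, that ratio was -0.16, and the cause of its low values was not tested. In replicate 1 the part of the bias in each low value was not tested.

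**Figure D3:**
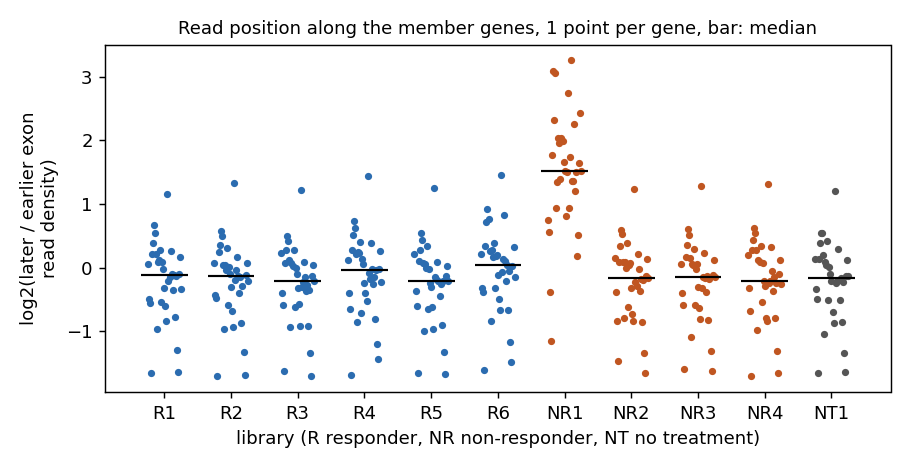
Log2 ratio of read density in later to earlier exons of each member, 1 point per gene and library, with a line at the median. Non-responder replicate 1 has a median of 1.52 and the other 10 libraries have medians between -0.21 and 0.05.

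Among the coagulation genes, the contact system held the second called member. Klkb1 (chr8) encodes plasma prekallikrein, the inactive precursor of the protease that releases bradykinin from kininogen. It was at 168, 261 and 288 CPM in the lowest, median and highest responder and at 70.3, 97.5, 167 and 158 CPM in the 4 non-responders. The groups did not overlap, but responder replicates 4 and 6, at 168 CPM each, were next to non-responder replicate 3 at 167 CPM. The log2 fold change was 0.95 ± 0.27 (SE, n = 6 and 4; edgeR adjusted p = 0.0448). The call was lost without non-responder replicate 1 (0.76, edgeR adjusted p = 0.0694) or 2 (0.86, 0.131), without responder replicates 1, 2, 3 or 5 (0.078 to 0.0939) with no filter on low counts (0.0533) and with the 3′ ratio of each library as a covariate (0.73, 0.0595), under which Mbl1 kept its call (0.75, edgeR adjusted p = 0.033). With the number from the library titles as a covariate both calls were lost (edgeR adjusted p = 0.432 for Mbl1 and 0.609 for Klkb1). Klkb1 shares 43.2% of its exon bases with Gm45753 on the same strand.

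Kng1, which encodes the kininogen from which bradykinin is released, went the other way. It was at 1081, 1206 and 1243 CPM in responders and at 1937, 2343, 1439 and 1377 CPM in non-responders, with no overlap and with non-responder replicates 1 and 2 highest. Its log2 fold change was -0.58 ± 0.17 with an edgeR adjusted p of 0.05002, which misses the threshold. It was under the threshold without non-responder replicate 3 (0.0382) or 4 (0.0387), with DESeq2 (0.00463) and with limma-voom (0.0455), and it rose to 0.156 without non-responder replicate 2. Kng2, the second kininogen gene, shares 17.2% of the 50-base stretches of Kng1. It was at 207, 209.5 and 219.6 CPM in responders and at 352, 394, 288 and 251 CPM in non-responders, and was lower in responders (-0.60 ± 0.13, edgeR adjusted p = 0.0233).

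Kng1 makes 2 proteins with different last exons, and the share of read density on these exons also differed between the groups. A longer exon 10 ends the high-molecular-weight form, which carries the contact-system domain, and exon 11 ends the low-molecular-weight form. The 99 bases that end the coding sequence of each form are shown in mm10 coordinates to make the 2 ends visible, with the stop codon in capitals. They are not specific to Kng1, since 50 of 50 stretches of 50 bases in the exon 11 end and 39 of 50 in the exon 10 end also occur in Kng2.
Kng1 exon 11, chr16:23081478-23081576, plus strand: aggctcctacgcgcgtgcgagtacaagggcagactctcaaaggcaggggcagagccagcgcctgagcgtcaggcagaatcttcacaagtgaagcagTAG
Kng1 exon 10 extension, chr16:23079739-23079837, plus strand: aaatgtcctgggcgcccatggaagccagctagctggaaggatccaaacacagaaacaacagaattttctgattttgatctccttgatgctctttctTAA
The share of exon 11 was taken from the read density, in counts per base, of exon 11 and of the last 412 bases of the longer exon 10. It was 52.7%, 54.2% and 59.8% at the lowest, median and highest responder. In non-responders it was 72.2%, 66.8%, 65.9% and 63.1%, and in the no-treatment library 52.7%. All 4 non-responders were above all 6 responders, including the 3 without 3′ bias. The means were 55.3% ± 2.72 (SD, n = 6) and 67.0% ± 3.81 (SD, n = 4), a difference of -11.7 percentage points (exact permutation test, two-sided, p = 0.00952, which is the smallest this design allows; 0.0286 after adjustment over 3 genes). Without any 1 non-responder the exact permutation p was 0.0238, the smallest that 6 against 3 libraries allow, and 0.0714 after adjustment over the 3 genes. The difference stayed between -9.92 and -12.95 points over all 10 sets that left out a library. In exon 11, 16.4% of the 50-base stretches also occur in Kng2, and in the exon 10 extension 37.5% do, so reads of the 2 genes may have been divided. Exon 11 lies 3′ of the exon 10 extension, and the highest share in each group was in its library with the highest 3′ ratio, non-responder replicate 1 (1.22) and responder replicate 6 (0.02). The part of read position in the difference was not tested within the groups.

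The other members known to use alternative last exons gave no such difference. The extended form of Fga, the fibrinogen α chain, took 8.25% ± 1.73 (SD, n = 6) and 8.61% ± 2.49 (SD, n = 4) of the density (exact permutation p = 0.8). The γ′ form of Fgg took 4.91% ± 1.35 (SD, n = 6) and 4.73% ± 0.46 (SD, n = 4; exact permutation p = 0.971). The last exon of the MASP-3 form of Masp1 is not in the exon table used here and was not analysed.

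**Figure D4:**
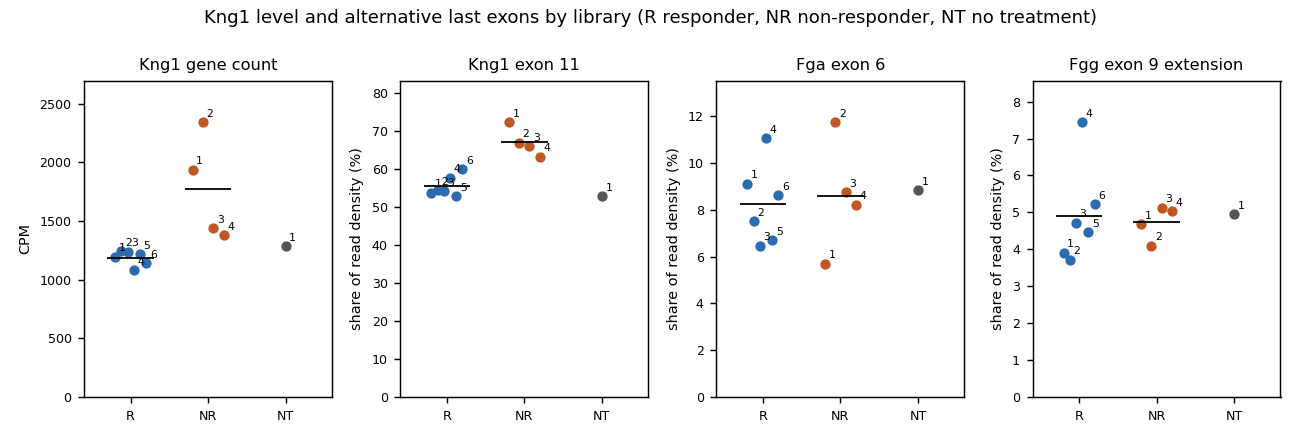
Kng1 level in CPM (left) and the share of an alternative last exon in read density for Kng1, Fga and Fgg, in percent, in each library, with replicate numbers beside the points and a line at each group mean. For Kng1 the non-responders lie between 63.1% and 72.2% and the responders between 52.7% and 59.8%, while the Fga and Fgg shares overlap.

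The remaining cofactor and contact genes did not pass over all libraries. F5, the cofactor of factor Xa, was at 795, 869 and 921 CPM in responders and at 468, 1286, 1240 and 1138 CPM in non-responders. Replicate 1 was below and the other 3 were above every responder. The log2 fold change was -0.26 ± 0.24 over all libraries (edgeR adjusted p = 0.515). Leaving out non-responder replicate 1 gave -0.50 ± 0.11 (edgeR adjusted p = 0.0281). With the 3′ ratio of each library as a covariate it was -0.49 ± 0.10 (edgeR adjusted p = 0.0269), so the F5 call depends on how that 1 library is treated. F11, the zymogen that factor XIIa activates, had a log2 fold change of -0.25 ± 0.17, and F12, the first zymogen of the contact system, one of -0.01 ± 0.13. F12 had the narrowest spread of the contact genes in responders, from 369.5 to 395 CPM.

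The vitamin K dependent factors had fold changes on both sides of 0, and 0 of 6 passed. Prothrombin, encoded by F2, was at 1404, 1538 and 1627 CPM in responders and at 1438, 1755, 1437 and 1372 CPM in non-responders, with overlapping ranges (0.03 ± 0.13, edgeR adjusted p = 0.916). F10 (0.25 ± 0.13) and the anticoagulant protease Proc (0.23 ± 0.14) were above 0. F7, the partner of tissue factor, was at -0.25 ± 0.11, F9 at -0.05 ± 0.18 and Pros1, the cofactor of activated protein C, at -0.09 ± 0.16. Adjusted p-values in this role ran from 0.16 to 0.916 with edgeR.

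Fibrin formation and removal showed no called gene. Fga was at 2873, 4325 and 5145 CPM in responders and at 2795, 5049, 3263 and 3556 CPM in non-responders (0.17 ± 0.23, edgeR adjusted p = 0.687). The other fibrinogen chains, Fgb (0.03 ± 0.21) and Fgg (0.26 ± 0.21), overlapped between the groups as well. F13b, the carrier subunit of the fibrin-crosslinking factor XIII, was at 53.9 CPM in non-responder replicate 1 and between 179 and 215 CPM in the other non-responders, against 176 to 247 CPM in responders. Plg, the zymogen of plasmin, was at 1899, 2370 and 2545 CPM in responders and at 1603, 2162, 1856 and 1918 CPM in non-responders (0.27 ± 0.15, edgeR adjusted p = 0.289). Cpb2, which trims fibrin and slows its lysis, had a log2 fold change of 0.03 ± 0.16.

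**Figure D5:**
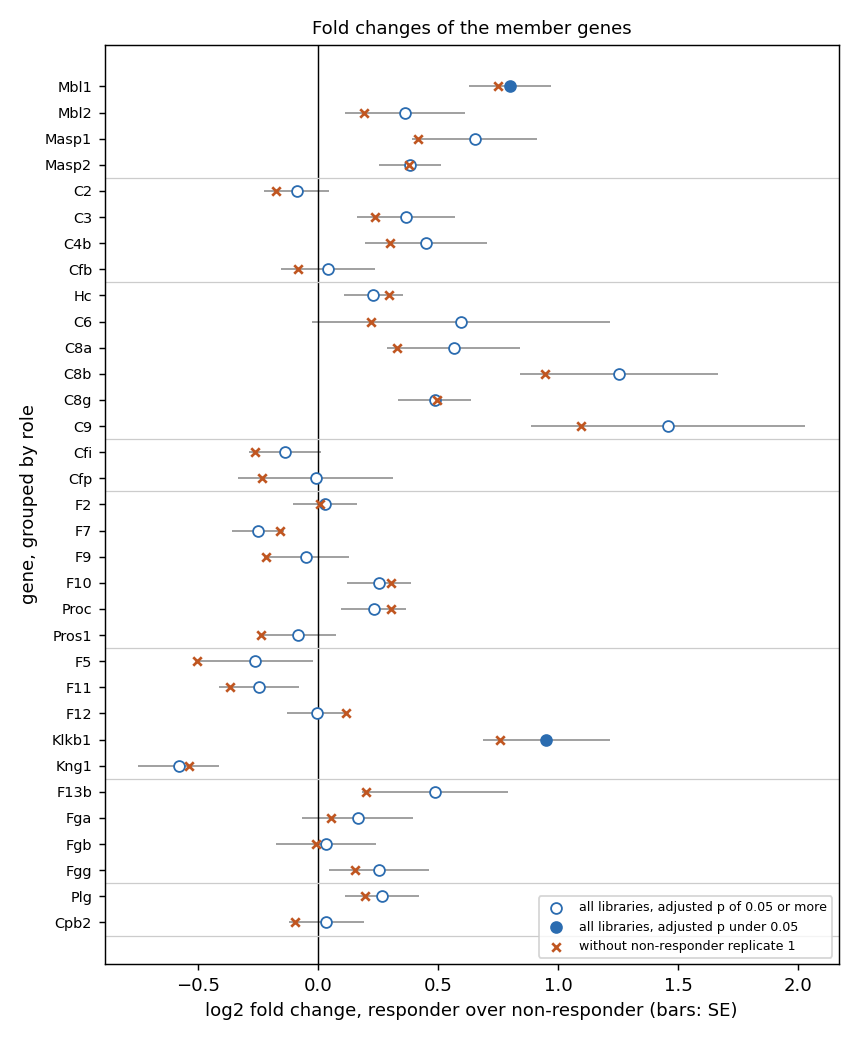
Log2 fold change of each tested member, responder over non-responder, with standard errors, for all treated libraries (circles, filled where the edgeR adjusted p is under 0.05) and without non-responder replicate 1 (crosses), grouped by role. Mbl1 at 0.80 and Klkb1 at 0.95 are filled, and F5 moves from -0.26 to -0.50 without that library.

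Several members lie side by side in the genome, which allowed a comparison that does not depend on library scaling. For the 6 pairs of tested members less than 50 kb apart, the log2 ratio of counts within each library was compared between the groups, a test added after the values had been seen. F11 and Klkb1 on chr8 are paralogous proteases whose genes are 7411 bases apart. Their log2 ratio, F11 over Klkb1, was between -1.51 and -1.04 in responders and between -0.41 and 0.43 in non-responders, a difference of -1.25 (exact permutation p = 0.0095, adjusted over 6 pairs 0.0143). F7 over F10, 1499 bases apart on chr8, was between -2.05 and -1.67 in responders and between -1.51 and -1.26 in non-responders, a difference of -0.49 with the same p-values. F7 was thus higher relative to its neighbour in the non-responders, although neither gene passed alone.

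The C8b over C8a ratio on chr4 was higher in responders by 0.85, with responders between -1.71 and -1.09 and non-responders between -2.74 and -1.84 (exact permutation p = 0.0095, adjusted 0.0143). Fgg over Fga on chr3 differed by only 0.09, between -0.5991 and -0.4498 in responders and between -0.6955 and -0.5998 in non-responders, so that the groups did not overlap but nearly touched, with the same p-values. For these 4 pairs 0.0095 is the smallest p the design allows, since the groups do not overlap. Klkb1 and C8b already had groups that do not overlap alone, so their pairs add no independent result. How often other neighbouring genes give ratios without overlap was not tested, so no share over all pairs can be set beside these. Among single genes tested, 11.3% did not overlap. Fga over Fgb (0.12) and Cfb over C2 (0.13) did not pass (exact permutation p = 0.286 and 0.276, each 0.286 after adjustment).

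The single no-treatment library, which has no replicate, lay within the responder range for 26 of the 33 members, above it for 6 and below it for 1. It lay within the non-responder range for 17, above it for 14 and below it for 2. The 6 above the responders were C6 at 529.5 CPM, C8b at 459.7 CPM, C9 at 1158 CPM, F13b, Proc and Kng1, and the 1 below was C3 at 6812 CPM. The terminal genes C6, C8b and C9, and also F13b and Proc, were higher there than in any treated library.

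Of 71 other genes of the 2 cascades, 67 were tested, and edgeR called 5 higher and 5 lower (14.9%, against 9.93% of all genes), with a median log2 fold change of 0.02. The higher ones were C4a, a paralog of C4b (1.05 ± 0.18), Cfhr3, a relative of factor H (0.92 ± 0.22), Cd59a, the inhibitor of the membrane attack complex (0.48 ± 0.13), Susd4, a membrane protein with complement control domains (2.98 ± 0.70), and C1qbp (0.55 ± 0.12). Susd4 ran from 15.3 to 46.9 CPM in responders and was at 0.66, 0.82, 6.77 and 7.93 CPM in non-responders, again with replicates 1 and 2 lowest. The lower ones were Kng2, the protease inhibitor A2m (-7.08 ± 1.09), tissue plasminogen activator Plat (-2.89 ± 0.63) and the thrombin and protease receptors F2r (-0.94 ± 0.14) and F2rl1 (-3.49 ± 0.72). A2m was between 0.14 and 0.74 CPM in responders and at 132, 128, 5.93 and 3.67 CPM in non-responders. Reads summed over the responders were 97 for A2m, 185 for Plat and 68 for F2rl1, so the size of these fold changes rests on low counts there. The initiator of coagulation, F3 (0.21 ± 0.19), and the main thrombin inhibitor Serpinc1 (0.33 ± 0.16) did not pass.

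Because several members are acute phase proteins, 17 other acute phase genes were read beside them. Orm1 was higher in responders (1.31 ± 0.29, edgeR adjusted p = 0.0226), and Apcs (-1.39 ± 0.33, 0.0298) and Il1rn (-2.54 ± 0.52, 0.0209) were lower. That is 17.6% of the list, against 9.93% of all genes tested. The other 14 did not pass. Over the list, 8 log2 fold changes were above 0 and 9 below, with a median of -0.002. Lcn2 ran from 1.29 to 61.5 CPM in responders and from 87.2 to 582 CPM in non-responders (-3.44 ± 1.02, edgeR adjusted p = 0.0585). Saa1 was at 450 CPM in its highest responder, against a responder median of 16.5 CPM (2.2 ± 1.16, edgeR adjusted p = 0.251). C3, Cfb and the fibrinogen chains did not pass in either direction.

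Which libraries and covariates enter decided the calls given here. The fit without non-responder replicate 2 called 79 genes of all those tested (0.441%) and 0 members. The titles carry a number that ran from 1 to 29 in responders and from 26 to 37 in non-responders. Only responder replicate 6, at 29, reached the numbers of the non-responders, and the other responders ran from 1 to 16. The title number and the response label thus largely go together, and their parts in the calls cannot be told apart. With that title number as a covariate, 1 gene (0.00568%) and 0 members were called, and the median of the members was 0.08. What that number stands for is not stated in the labels.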

How the data were processed

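RNA was taken from mouse liver with TRIzol and made into TruSeq libraries, per the labels' protocols. The submitters' processing notes name FastQC and mm10, with the aligner, counter and strand setting not given in the sources used here. Raw counts per gene and per exon were deposited by the authors, per the file headers. RPKM values that the authors deposited in the same tables were not used. The fit used edgeR 4.0.16 under R 4.3.3 (TMM scaling, filterByExpr, robust quasi-likelihood F test, Benjamini-Hochberg over 17610 genes, threshold 0.05) on 6 responder and 4 non-responder libraries, with no covariate. CPM used TMM scaling over all 11 libraries. The replicate numbers are in accession order and pair nothing.

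All 34 members, the members with a call or groups that do not overlap, and C3, F2, Fga and Plg as leaders of their roles, were named by rule, as were called genes of the other lists; C6, C8a and F5 were given in full after their values were seen. The members and all lists were chosen with earlier results of these data known. Last-exon shares (counts per exon length) and pair ratios (0.5 added to each count) were compared by exact permutation over libraries, two-sided. Gene models were GENCODE M21 on the same build, and promoters came from RefSeq. Alternatives were other scalings and filters, DESeq2 1.42.0, limma-voom 3.58.1, 2 covariates, the no-treatment library in the fit, and each library left out. On counts simulated for the responder against non-responder comparison over 17610 genes, edgeR recovered 4 of 66 genes with a 1.5-fold change, 34 of 66 at 2-fold and 56 of 66 at 4-fold, and called 3 of 17172 without a change. Those counts were drawn independently for each gene and library, with no 3′ biased library and no trend with the title number. The rates may therefore not hold for the real libraries. Among the members, depth limits precision mainly for Cfd. No molecular identifiers are named, so counting error is a lower limit.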

Additional observations from a re-analysis of the deposited data

Results flagged for a closer look

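Of 72 groups of values tested (each member and the 3 last-exon shares in each treated group), 2 held a library far from the others by Dixon's test, where chance places about 5% past its 95% level. Cfb was at 2101 CPM in responder replicate 3, with the next responder at 1376 CPM. F11 was at 86.99 CPM in non-responder replicate 1, with the next non-responder at 126 CPM.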

How the results depend on the processing

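No paired analysis was possible because the labels give the libraries no shared replicate numbers. Of 660 member fold changes under the alternatives, 594 kept their direction and side of the threshold, 14 lost a call, 14 gained one and 38 changed sign, none of the last with a call in either fit. DESeq2 called 1396 genes higher and 1661 lower, 5 members higher and 1 lower, and 10 and 8 of the other cascade genes; limma-voom called 8 of those higher. The title number as a covariate left 0 genes higher and 1 lower, with 0 members, 0 other cascade genes and 0 acute phase genes in either direction. No filter left 1 member and 3 other cascade genes higher, beside 510 of all genes. The coverage index as a covariate left 1 member higher and 1 lower, beside 847 and 907 of all genes, and 1 acute phase gene lower. Upper-quartile scaling, library size only, a mean CPM of 1 or more and limma-voom each called 1 member lower, beside 1036, 958, 1035 and 1105 of all genes. With a library left out, calls ran from 38 to 836 genes higher and 41 to 1158 lower, 0 to 3 members higher and 0 to 1 lower, 0 to 7 other cascade genes higher and 2 to 8 lower, and 0 to 1 acute phase genes higher and 0 to 3 lower. The fit without non-responder replicate 2 gave the lowest counts of genes; the cause was not tested. The following log2 fold changes changed sign, and 0 of them were called. Under the title number, F2 was at -0.1244, Fga at -0.3744, Fgb at -0.3861, Fgg at -0.1687 and Cpb2 at -0.0865. Under the coverage index, Cfb was at -0.0881, F12 at 0.1105, Fgb at -0.0274 and Cpb2 at -0.1038. F12 was at 0.0015 with RLE scaling, 0.02 with no filter, 0.0017 with DESeq2 and 0.0028 with the no-treatment library in the fit, and Cfp at 0.0058 with no filter. Over the fits without 1 library, Cfb ran from -0.0952 to 0.1244, Cfp from -0.258 to 0.1899, F2 from -0.0094 to 0.1226, F9 from -0.2165 to 0.0914, F12 from -0.0596 to 0.1147, Pros1 from -0.2357 to 0.0037, Fgb from -0.0598 to 0.2538 and Cpb2 from -0.0968 to 0.1129. The last-exon share of Fga ran from -1.33 to 0.693 points, of Fgg from -0.322 to 0.423 and of Kng1 from -12.95 to -9.92. The log2 ratios of Cfb over C2 and Fga over Fgb did not pass in any of these sets. With raw exon counts in place of density the Kng1 share differed by -10.4 points. Among the members, depth left only Cfd untested, with 5 reads in all treated libraries.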
